A study of Mus musculus with 15 samples.

Results

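The distal convoluted tubule and the connecting tubule are the short nephron segments that follow the thick ascending limb, and 10 genes of salt, magnesium and calcium transport in these segments were followed across kidneys with and without Grhl1. The genes were Slc12a3, Pvalb, Trpm6, Trpm7, Trpv5, Calb1, Slc8a1, Wnk1, Wnk4 and Klhl3. They were chosen by name for their roles, with earlier results of these data known, and measured by the probe sets annotated to each of them alone. All 10 were measured, each by 1 probe set, among 22180 genes with a probe set of their own. Transcripts were measured in whole kidney RNA on a 1-colour expression array in 7 Grhl1+/+ mice, wild type, and 8 Grhl1-/- mice, knockout, all aged about 6 months. The product of Grhl1 is an epithelial transcription factor of the grainyhead family. No source used here gave the deleted part of the gene, the strain, the sex or the litters, and each array was taken as 1 mouse. Wild-type kidneys are replicates 1 to 7 and knockout kidneys replicates 8 to 15.

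Sodium chloride enters the cells of the distal convoluted tubule through the thiazide-sensitive cotransporter, the product of Slc12a3. The WNK kinases act on it through the kinases SPAK and OSR1, which phosphorylate the cotransporter, and Klhl3 encodes the adaptor by which a cullin ubiquitin ligase marks WNK kinases for degradation. Magnesium enters through the channel kinase Trpm6, and calcium enters farther along through the channel Trpv5, is carried across the cell by calbindin (Calb1) and leaves through the exchanger encoded by Slc8a1. Mutations of human WNK1, WNK4 or KLHL3 cause familial hyperkalaemic hypertension, and loss of SLC12A3 causes Gitelman syndrome.

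Values are log2 summaries by robust multi-array average (RMA) per probe set, and differences are on the log2 scale. Different probes bind with different strength, so each gene is compared only with itself across kidneys. Slc12a3, the defining marker of the distal convoluted tubule, was bright on these arrays, with 99.6% of probe sets below its mean over all arrays. For Pvalb this share was 72.9%. All 10 lay above the median of the probe sets tested.

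Several kidneys carried transcripts that cross the genotypes. The 3 measured Y-linked genes averaged 8.37 to 8.68 in 10 kidneys, 5 of each genotype, and 3.96 to 4.26 in the other 5, which were replicates 6 and 7 of the wild type and 13, 14 and 15 of the knockout. In these 5, Xist, the RNA of the inactive X chromosome, read 11.4 to 11.6, and in the 10 with Y-linked transcripts it read 3.60 to 4.29. Liver or adrenal cortex genes were high in 7 kidneys, replicates 2, 3 and 7 of the wild type and 10 to 13 of the knockout. Grhl1 itself read 5.09 ± 0.10 (SD, n = 7) in wild-type and 4.70 ± 0.16 (n = 8) in knockout kidneys, with a limma adjusted p of 0.113. The groups did not overlap, as in 0.123% of all probe sets. Both means lay below the array medians of 5.51 to 5.59. RMA compresses dim probe sets, so these values do not give the size of the loss of Grhl1.

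Promoters are shown for the cotransporter gene that defines the segment, for Trpm7, whose values separated the genotypes (below), and for the calcium channel gene Trpv5. They come from RefSeq, build GRCm38.p6, where 9 of the 10 genes had at least 1 promoter, and are the 250 bases before the annotated start, 5′ to 3′ on the gene's strand. Capitals mark TATAAA in Slc12a3 and Trpv5, and AACAAGTT in Trpm7.
Slc12a3 (chr8:94328958-94329207, plus strand): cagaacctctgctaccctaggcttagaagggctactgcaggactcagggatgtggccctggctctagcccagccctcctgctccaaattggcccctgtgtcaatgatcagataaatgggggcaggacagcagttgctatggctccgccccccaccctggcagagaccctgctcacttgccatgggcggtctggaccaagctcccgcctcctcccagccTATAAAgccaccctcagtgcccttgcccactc
Trpm7 (chr2:126876262-126876511, minus strand): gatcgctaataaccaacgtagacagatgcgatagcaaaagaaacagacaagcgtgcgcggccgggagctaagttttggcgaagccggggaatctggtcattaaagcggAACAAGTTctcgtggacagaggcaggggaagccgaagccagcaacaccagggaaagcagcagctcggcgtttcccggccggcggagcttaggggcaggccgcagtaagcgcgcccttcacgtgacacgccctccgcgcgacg
Trpv5 (chr6:41680724-41680973, minus strand): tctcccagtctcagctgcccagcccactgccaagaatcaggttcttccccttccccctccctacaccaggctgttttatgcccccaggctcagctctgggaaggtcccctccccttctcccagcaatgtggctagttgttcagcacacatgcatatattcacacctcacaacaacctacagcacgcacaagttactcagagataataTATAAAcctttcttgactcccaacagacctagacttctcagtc

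The grainyhead consensus AACCGGTT, searched on both strands, was in none of the 10 promoters of these genes (250 bases before to 50 after the start), and 0.146% of all 32851 promoters of this length held it. The relaxed form AACNNGTT, which includes the consensus, was in 4.2% of all promoters and in 2 of the 10, at position -142 of Trpm7 and at position 41 of Trpv5, past the printed stretch. TATAAA was in 13.6% of all promoters and in 2 of the 10, at position -32 of Slc12a3 and -43 of Trpv5. The palindromic oestrogen response element and the palindromic androgen and glucocorticoid response element were in none of the 10, and in 0.07% and 0.00913% of all promoters. These letters describe the windows and show no binding.

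The comparison of genotypes asks whether these transport genes differ in the kidney when Grhl1 is lost. No member passed the threshold, a Benjamini-Hochberg adjusted p under 0.05 in limma over 23521 probe sets, where 0.0128% of all probe sets passed. Pvalb and Trpm7 had an unadjusted p under 0.05, as did 5.55% of all probe sets. The exact permutation test over all 6435 assignments of the genotype labels called 0 of 23521 probe sets after adjustment. Its smallest adjusted p was 0.261, and with 6435 assignments it could hardly call any probe set after adjustment over 23521. It gave an unadjusted p under 0.05 for 1395 probe sets (5.93%), with Trpm7 alone among the members. The differences, knockout minus wild type, lay between -0.023 and 0.23 with a median of 0.085, and 9 of 10 were above 0, as were 54.6% of all probe sets, whose median was 0.0083. The adjusted p of the members ran from 0.894 to 0.997.

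**Figure D1:**
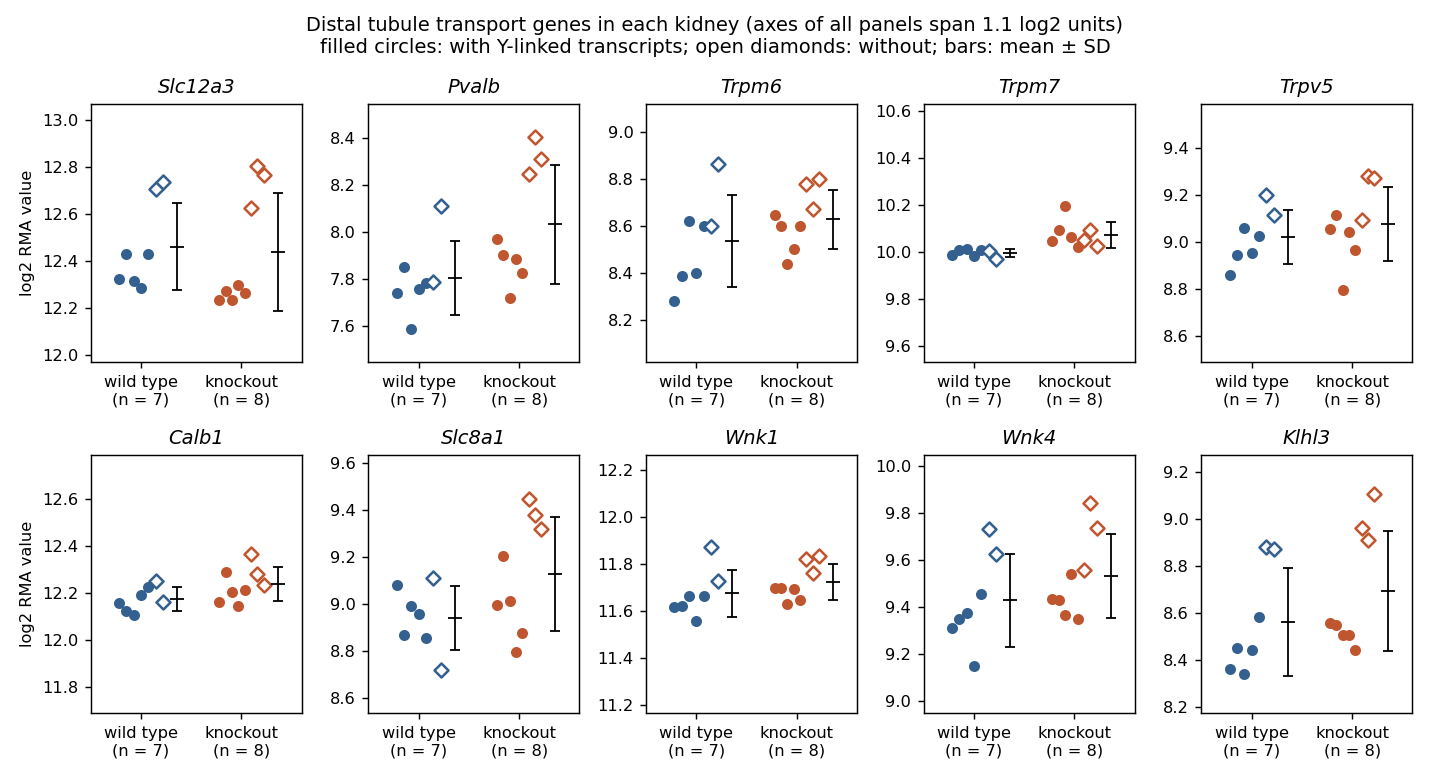
Log2 RMA value of each of the 10 genes (vertical axes, each spanning the same 1.1 log2 units) in the 7 wild-type and 8 knockout kidneys; filled circles are kidneys with and open diamonds kidneys without Y-linked transcripts, and bars are means ± SD. The open diamonds lie above all filled circles for Slc12a3, Wnk1, Wnk4 and Klhl3, and all knockout kidneys lie above all wild-type kidneys for Trpm7.

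Slc12a3 (probe set 17503974) showed no genotype difference beyond the spread between mice. It read 12.33, 12.43, 12.32, 12.29, 12.43, 12.71 and 12.74 in wild-type replicates 1 to 7. In knockout replicates 8 to 15 it read 12.24, 12.27, 12.24, 12.30, 12.27, 12.63, 12.81 and 12.77. The high values were those of the 5 kidneys without Y-linked transcripts in both genotypes, and the genotypes overlapped. Means were 12.46 ± 0.19 and 12.44 ± 0.25, a difference of -0.023 (SE 0.11, 95% interval -0.25 to 0.21, limma adjusted p = 0.997, exact permutation p = 0.856). The sign of this difference turned in 6 of the fits that left out 1 kidney, which dropped wild-type kidney 6 or 7 or knockout kidney 8, 9, 10 or 12. All 15 such fits ranged from -0.075 to 0.023. With the presence of Y-linked transcripts as a covariate it was below 0 in all 15, from -0.075 to -0.046. Among the kidneys with Y-linked transcripts the difference was -0.095 (SE 0.046, limma adjusted p = 0.665). Among the kidneys without them it was 0.011 (SE 0.082, limma adjusted p = 0.982).

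Pvalb (probe set 17318942) encodes parvalbumin, a cytosolic calcium-binding protein of the early distal convoluted tubule that is abundant in fast skeletal muscle as well. It had the highest difference of the 10. Values in wild-type kidneys were 7.74, 7.85, 7.59, 7.76, 7.78, 7.79 and 8.11, and in knockout kidneys 7.97, 7.90, 7.72, 7.88, 7.82, 8.25, 8.40 and 8.31. Of the 8 knockout kidneys, 7 lay above the wild-type median of 7.78, and knockout replicates 13 to 15 lay above every other kidney. Means were 7.80 ± 0.16 and 8.03 ± 0.25, a difference of 0.23 (SE 0.10, 95% interval 0.0084 to 0.45) or 1.17-fold, which missed the threshold (limma adjusted p = 0.894, exact permutation p = 0.0614). A list of 9 skeletal muscle genes includes the creatine kinase Ckm and the fast myosins Myh1, Myh2 and Myh4. Its mean lay between 4.97 and 5.37 in wild-type and between 5.05 and 5.21 in knockout kidneys. Of the 9 differences 4 were above 0, beside 54.6% of all probe sets. The mean of these muscle genes lay below the array medians of 5.51 to 5.59 in both groups. The part of skeletal muscle in the Pvalb values was not tested.

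Trpm7 (probe set 17391150), a broadly expressed relative of Trpm6 that joins an ion channel to a kinase, was higher in every knockout kidney than in every wild-type kidney, by a small amount. It read 9.99, 10.01, 10.01, 9.98, 10.01, 10.01 and 9.97 in wild-type replicates 1 to 7. The knockout values were 10.05, 10.09, 10.20, 10.06, 10.02, 10.05, 10.09 and 10.03. Non-overlap of the genotypes in either direction was seen in 0.123% of all probe sets and in 1 of the 10 members. Means were 9.997 ± 0.017 and 10.07 ± 0.056, a difference of 0.077 (SE 0.035, 95% interval 0.0019 to 0.15) or 1.05-fold. The exact permutation p was 0.000932, and the limma adjusted p was 0.894, which missed the threshold. Adjusted over all probe sets the exact p was 0.332. No probe set had an adjusted exact p below 0.261, so that adjusted test could not decide the matter for Trpm7. Leaving out knockout replicate 10, the highest value, gave 0.059.

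Trpm6 (probe set 17358051), the magnesium channel kinase of the distal convoluted tubule, ranged from 8.28 to 8.86 (median 8.60) in wild-type and from 8.44 to 8.80 (median 8.62) in knockout kidneys. The groups overlapped over nearly their whole range, and the difference was 0.094 (SE 0.081, 95% interval -0.077 to 0.26, limma adjusted p = 0.984). Leaving out 1 kidney moved it to between 0.051 (wild-type replicate 1) and 0.15 (wild-type replicate 7).

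Among the calcium genes, Trpv5 (probe set 17466340), the apical entry channel, ranged from 8.86 to 9.20 in wild-type and from 8.80 to 9.28 in knockout kidneys. Its difference was 0.055 (SE 0.071, 95% interval -0.096 to 0.21, limma adjusted p = 0.997), and leaving out 1 kidney moved it to between 0.026 (knockout replicate 14) and 0.095 (knockout replicate 10). Calb1 (probe set 17411966), the intracellular calcium buffer calbindin, ranged from 12.11 to 12.25 and from 12.15 to 12.37, a difference of 0.063 (SE 0.042, 95% interval -0.026 to 0.15, limma adjusted p = 0.973). Both genes overlapped between the genotypes.

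Slc8a1 (probe set 17347619), the sodium-calcium exchanger of the basolateral membrane, is also a gene of heart muscle. Its values were 9.08, 8.87, 8.99, 8.96, 8.86, 9.11 and 8.72 in wild-type replicates 1 to 7. In knockout replicates 8 to 15 they were 8.999, 9.21, 9.01, 8.80, 8.88, 9.45, 9.38 and 9.32. The 3 highest were knockout replicates 13, 14 and 15, and the other 5 knockout kidneys lay between 8.80 and 9.21. Means were 8.94 ± 0.14 and 9.13 ± 0.24, a difference of 0.19 (SE 0.098, 95% interval -0.020 to 0.40, limma adjusted p = 0.937, exact permutation p = 0.0937). The mean of 6 heart muscle genes lay between 5.45 and 5.61 in wild-type and between 5.41 and 5.64 in knockout kidneys. These means were near the array medians of 5.51 to 5.59. Of the 6 differences 5 were above 0, beside 54.6% of all probe sets. The part of heart muscle in the Slc8a1 values was not tested.

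The WNK pathway genes differed by less than their spread. Wnk1 (probe set 17470354) was at 11.67 ± 0.10 and 11.72 ± 0.076, a difference of 0.048 (SE 0.051, 95% interval -0.059 to 0.16, limma adjusted p = 0.989). Wnk1 has a short form of the distal convoluted tubule that lacks the kinase domain, and its probe set could not be assigned to a form here. Wnk4 (probe set 17256632), the WNK kinase best known from the distal nephron, was at 9.43 ± 0.20 and 9.53 ± 0.18, a difference of 0.10 (SE 0.092, 95% interval -0.091 to 0.30, limma adjusted p = 0.984). Klhl3 (probe set 17293059), the ligase adaptor, was at 8.56 ± 0.23 and 8.69 ± 0.26, a difference of 0.13 (SE 0.12, 95% interval -0.12 to 0.38, limma adjusted p = 0.984). Leaving out 1 kidney moved Wnk1 to between 0.029 (wild-type replicate 4) and 0.081 (wild-type replicate 6). For Wnk4 the lowest such value was 0.057, without wild-type replicate 4, and for Klhl3 it was 0.072, without knockout replicate 15.

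Without the 7 kidneys with liver or adrenal transcripts, 4 kidneys of each genotype remained, and 1 of the wild-type and 2 of the knockout kidneys lacked Y-linked transcripts, so the genotypes were unbalanced for these. No member passed in limma there (adjusted p = 0.991 for each). Pvalb and Trpm6 had an unadjusted limma p under 0.05 (0.0094 and 0.047). The shares of all probe sets in that fit are not given here, so these counts cannot be read against a background. Slc12a3 was at 0.083 in that fit and at -0.031 with Y-linked transcripts as a covariate. Pvalb was at 0.38 and 0.32, Trpm6 at 0.21 and 0.18, Trpv5 at 0.17 and 0.12, and Slc8a1 at 0.22 and 0.17, without and with the covariate. Wnk4 was at 0.20 and 0.10, Klhl3 at 0.21 and 0.10, and Wnk1 at 0.072 and 0.030. Calb1, at 0.035 and 0.024, lay below its value over all kidneys, and Trpm7 was at 0.068 and 0.069.

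With the presence of Y-linked transcripts as a covariate, the intervals of all 10 members narrowed and the count of calls stayed at 0, where 0.0638% of all probe sets passed. Pvalb was then at 0.20 (SE 0.064, 95% interval 0.061 to 0.34, limma adjusted p = 0.355), Trpm7 at 0.079 (SE 0.033, limma adjusted p = 0.523) and Klhl3 at 0.090 (SE 0.043, limma adjusted p = 0.591). The interval of Slc12a3, -0.061 (SE 0.039), ran from -0.14 to 0.023. Slc8a1 kept a wide interval, at 0.17 (SE 0.086, 95% interval -0.014 to 0.35).

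**Figure D2:**
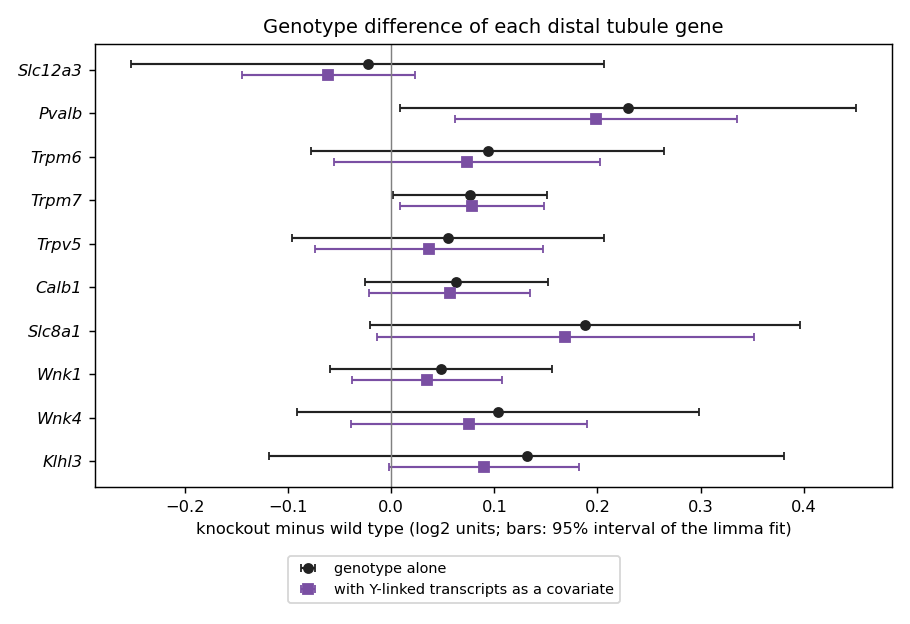
Difference of each gene between 8 knockout and 7 wild-type kidneys (horizontal axis, log2 units), from limma without a covariate (circles) and with the presence of Y-linked transcripts as a covariate (squares), with 95% intervals that are not adjusted for the number of probe sets. Only the intervals of Pvalb and Trpm7 lie above 0, and with the covariate that of Slc12a3 narrows from -0.25 to 0.21 to -0.14 to 0.023.

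More of the 10 genes passed by Y-linked transcripts than by genotype. In limma with the genotype in the fit, 7 of the 10 were higher in the 5 kidneys without Y-linked transcripts and 0 were lower, while 14.4% of all probe sets were called higher and 10.6% lower. The 7 were Slc12a3, Pvalb, Trpm6, Trpv5, Wnk1, Wnk4 and Klhl3. Their median difference over all 10, 0.22, stood beside -0.0095 over all probe sets. Slc12a3, Wnk1, Wnk4 and Klhl3 did not overlap between the 2 sets of kidneys, higher without Y-linked transcripts, as was seen in 6.82% of all probe sets. The sets of kidneys were defined from these arrays and are no groups of the study. The kidneys without Y-linked transcripts are 2 wild-type and 3 knockout kidneys, so their precision is limited.

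Slc12a3 lay between 12.24 and 12.43 (median 12.29) in the 10 kidneys with Y-linked transcripts and between 12.63 and 12.81 in the 5 without. Its difference was 0.42 (SE 0.042, 95% interval 0.34 to 0.51) or 1.34-fold, with a limma adjusted p of 2.34e-06. It was 0.36 within wild-type kidneys (limma adjusted p = 0.0204) and 0.47 within knockout kidneys (limma adjusted p = 0.000923), where 8.32% and 13.9% of all probe sets passed.

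Klhl3 showed a difference of the same order. Its values were 8.34 to 8.58 (median 8.48) with Y-linked transcripts and 8.88, 8.87, 8.96, 8.91 and 9.10 in replicates 6, 7, 13, 14 and 15, which lack them. The difference was 0.46 (SE 0.046, 95% interval 0.36 to 0.56) or 1.38-fold (limma adjusted p = 2.71e-06), and 0.44 and 0.48 within wild-type and knockout kidneys, both past the threshold (limma adjusted p = 0.0164 and 0.00124).

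Both kinases were higher in the same kidneys. Wnk4 read 9.15 to 9.54 with Y-linked transcripts and 9.56 to 9.85 without, a difference of 0.32 (SE 0.057, limma adjusted p = 0.000677). For Wnk1 the ranges were 11.55 to 11.70 and 11.73 to 11.87, a difference of 0.15 (SE 0.036, limma adjusted p = 0.00537). Within wild-type and knockout kidneys Wnk4 was at 0.35 (limma adjusted p = 0.0541) and 0.29 (0.0358). Wnk1 was at 0.18 (limma adjusted p = 0.170) and 0.13 (0.106), past the threshold in neither.

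Trpm6 was higher by 0.23 (SE 0.064, limma adjusted p = 0.0159) and Trpv5 by 0.21 (SE 0.055, limma adjusted p = 0.0114), each with overlap. The call of Trpm6 was lost without wild-type replicate 7 (0.18, limma adjusted p = 0.0715), a kidney with liver transcripts. Pvalb was higher by 0.35 (SE 0.068, limma adjusted p = 0.00125), with wild-type replicate 6, at 7.79, inside the range of the other set. Within wild-type kidneys Pvalb did not pass (0.20, limma adjusted p = 0.286), and within knockout kidneys it did (0.46, limma adjusted p = 0.00302). Of the 9 skeletal muscle genes, Myh1 was called higher without Y-linked transcripts (0.55) and Atp2a1 lower (-0.42), both named after their values were seen. This count of 1 in each direction was near the shares of all probe sets, 14.4% and 10.6%. Trpm6 and Trpv5 passed in neither genotype alone (limma adjusted p from 0.0863 to 0.209). Calb1 at 0.071 (SE 0.039, 95% interval -0.011 to 0.15), Trpm7 at -0.021 (SE 0.035, 95% interval -0.095 to 0.052) and Slc8a1 at 0.22 (SE 0.091, 95% interval 0.021 to 0.41) did not pass in limma (adjusted p = 0.205, 0.704 and 0.101). Slc8a1 passed without wild-type replicate 7 (0.33, limma adjusted p = 0.00501).

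Without the 7 kidneys with liver or adrenal transcripts, 3 of the 10 passed, Slc12a3 at 0.46 (limma adjusted p = 0.00384), Wnk4 at 0.39 (0.0164) and Klhl3 at 0.44 (0.00819), where 7.86% of all probe sets were called higher. That fit held 5 kidneys with and 3 without Y-linked transcripts. All 7 differences that had passed stayed above 0 in it, from 0.14 for Trpm6 to 0.46 for Slc12a3.

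**Figure D3:**
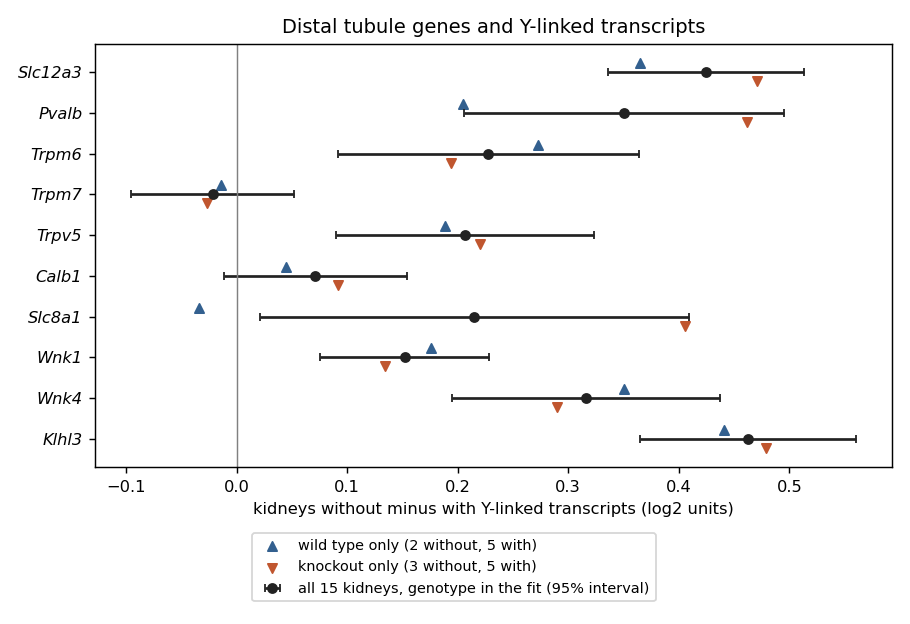
Difference of each gene between the 5 kidneys without and the 10 kidneys with Y-linked transcripts (horizontal axis, log2 units), from limma with the genotype in the fit (circles, with 95% intervals) and within each genotype (triangles). Klhl3 and Slc12a3 lie farthest to the right, at 0.46 and 0.42, and the triangles of Slc8a1 lie apart, at -0.034 in wild-type and 0.41 in knockout kidneys.

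Whether the genotype difference itself was unlike in the 2 sets of kidneys was tested as an interaction, and no member passed in limma (smallest adjusted p 0.609), as for all 23521 probe sets, of which 0.0% passed and 7.04% had an unadjusted p under 0.05. Within the kidneys with and those without Y-linked transcripts, no member passed for genotype in limma, where 0.0085% and 0.00425% of all probe sets passed. Slc8a1 was the member with an unadjusted interaction p below 0.05. It differed between the genotypes by 0.026 (SE 0.078) among the kidneys with Y-linked transcripts and by 0.47 (SE 0.13) among those without, an interaction of 0.44 (SE 0.15, unadjusted p = 0.0106, limma adjusted p = 0.609). The interaction rested on few kidneys, being 0.24 when wild-type replicate 7 was left out, 0.64 when replicate 6 was (limma adjusted p = 0.0998), and 0.10 without the kidneys with liver or adrenal transcripts. For Pvalb the differences were 0.12 (SE 0.064) and 0.37 (SE 0.12), an interaction of 0.26 (SE 0.12, limma adjusted p = 0.708), which was 0.096 when wild-type replicate 6 was left out, 0.42 when replicate 7 was, and 0.39 without the kidneys with liver or adrenal transcripts. Slc8a1 and Pvalb were chosen for this account after their values were seen.

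Markers of other parts of the kidney differed by Y-linked transcripts too, where 14.4% of all probe sets were called higher and 10.6% lower. In limma the kidneys without these transcripts were higher in 4 of 5 thick ascending limb genes (median 0.27), 3 of 5 principal cell genes (0.30), 5 of 6 intercalated cell genes (0.42), 4 of 4 podocyte genes (0.32) and 3 of 5 endothelial genes (0.15), with none lower. Of 8 proximal tubule genes 2 were higher and 2 lower, with a median of 0.010. The proximal tubule genes that were lower were the organic anion transporter gene Slc22a6, at -0.89, and the androgen-regulated gene Kap, at -0.35. Those that were higher were Slc5a12, at 0.29, and Slc5a2, at 0.20. All of these were named after their values were seen, and the difference of Slc22a6 was the largest of the list. The list means of proximal tubule genes ran from 12.37 to 12.48 with and from 12.28 to 12.39 without Y-linked transcripts, and those of intercalated cell genes from 9.22 to 9.53 and from 9.59 to 9.79. The part of these other cell types in the results for the distal tubule genes was not tested, and in whole kidney RNA fewer cells of a type and less RNA per cell cannot be told apart.

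**Figure D4:**
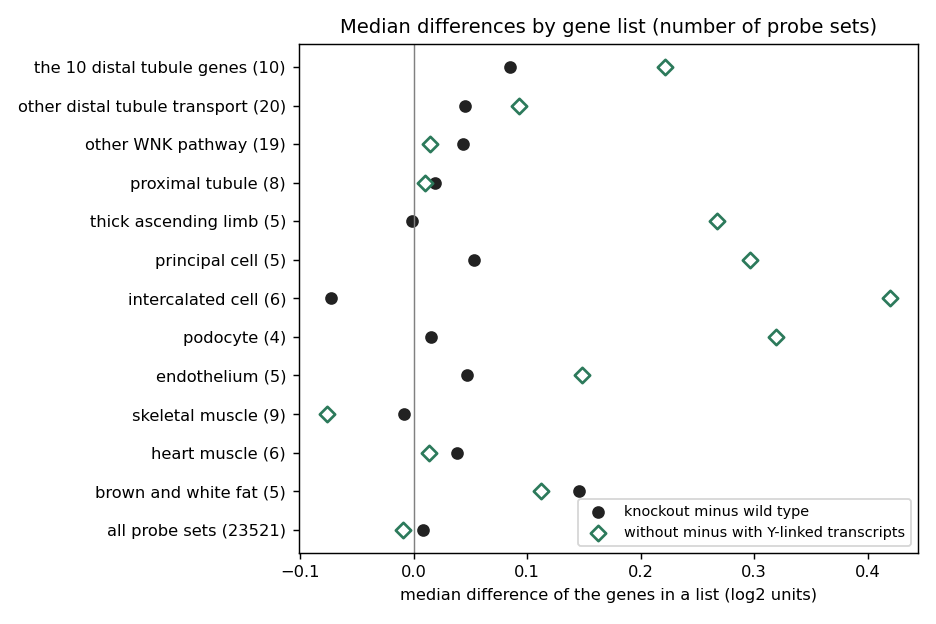
Median difference over the genes of each list (horizontal axis, log2 units), knockout minus wild type (filled circles) and without minus with Y-linked transcripts (open diamonds), with the number of probe sets behind each name. Lists left out are the liver, adrenal and sex-linked ones and the 6 distal tubule markers, which are all among the 10 genes. The genotype medians shown lie between -0.073 for intercalated cells and 0.15 for fat, while the diamonds reach 0.42 for intercalated cells and 0.22 for the 10 distal tubule genes.

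Other transport genes of these segments also missed the threshold for genotype. Of 20 measured genes, 0 passed in limma, beside 0.0128% of all probe sets. Above 0 were 16, beside 54.6% of all probe sets, and the median was 0.045, beside 0.0083. An unadjusted p under 0.05 was seen for 2, beside 5.55% of all probe sets. The 2 were Slc41a1, which encodes a magnesium transporter (0.23, SE 0.083, limma adjusted p = 0.749), and Kcnj16, which encodes a basolateral potassium channel subunit (0.078, SE 0.035, limma adjusted p = 0.894). By Y-linked transcripts 8 of the 20 were higher and 2 lower, beside 14.4% and 10.6% of all probe sets, with a median of 0.093. The count of lower genes was near that share. Examples were Bsnd, the chloride channel subunit barttin (0.43), Slc41a3 (0.31), the vitamin D-dependent calcium-binding protein gene S100g (0.31) and Egf (0.28), with limma adjusted p from 2.19e-05 to 0.000359. The lower genes, named after their values were seen, were Kl, which encodes the FGF23 co-receptor Klotho (-0.19), and Pth1r, the parathyroid hormone receptor gene (-0.18).

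Of 19 other genes of the WNK pathway, 0 passed for genotype in limma, beside 0.0128% of all probe sets. Also 0 had an unadjusted p under 0.05, beside 5.55% of all probe sets. The smallest p-values were those of Sgk1, the aldosterone-induced kinase (-0.27, SE 0.14, limma adjusted p = 0.937), and Ppp3ca, a catalytic subunit of calcineurin (0.081, SE 0.046, limma adjusted p = 0.950). By Y-linked transcripts 7 of the 19 were higher and 4 lower (median 0.014), beside 14.4% and 10.6% of all probe sets. Slc12a2, the widely expressed sodium-potassium-chloride cotransporter, was lower, at -0.60 (SE 0.054, limma adjusted p = 9.46e-07). The protein phosphatase inhibitor gene Ppp1r1a was higher by 0.49, the glucocorticoid-inactivating enzyme gene Hsd11b2 by 0.39 and the potassium channel gene Kcnj1 by 0.39, with limma adjusted p from 1.22e-05 to 8.94e-05. Cul3, the cullin that binds Klhl3, was lower, at -0.19 (SE 0.035), as were the related adaptor gene Klhl2 at -0.34 (SE 0.052) and the cochaperone gene Fkbp4 at -0.32 (SE 0.051), all named after their values were seen. Stk39, which encodes SPAK, was higher by 0.33 (SE 0.050, limma adjusted p = 0.000152), and Oxsr1, which encodes OSR1, did not pass (0.014, SE 0.036); both were named after their values were seen.

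The members varied together to a limited extent beyond this division. Since several fall into separate clusters by Y-linked transcripts, correlations were taken within the 10 kidneys that held these transcripts, 5 of each genotype, over all 45 pairs. Pearson's r ran from -0.51 to 0.91 with a median of 0.24, 33 pairs were above 0, and 1 pair passed after adjustment over the 45. This pair was Wnk1 and Wnk4, with r = 0.91 (permutation p = 0.00053, adjusted p = 0.0238, n = 10) and Spearman's rho = 0.83 (permutation p = 0.00495, adjusted p = 0.0882). Without the 2 kidneys farthest from the median of Wnk1, r was 0.83 (n = 8). The rank correlation called 0 of 45 pairs after adjustment. Wild-type replicate 4 was lowest in both kinases among these 10, at 11.55 for Wnk1 and 9.15 for Wnk4.

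**Figure D5:**
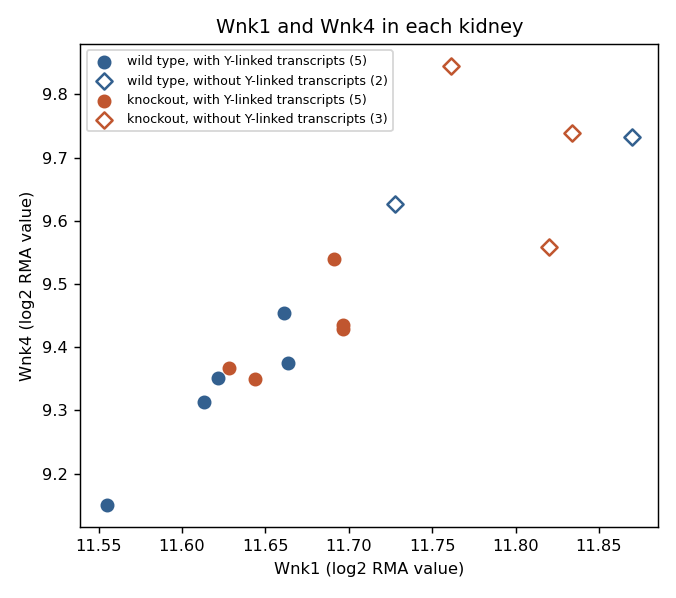
Wnk4 against Wnk1 (log2 RMA values) in each of the 15 kidneys, coloured by genotype; filled circles hold Y-linked transcripts and open diamonds do not. The 10 filled circles rise together (r = 0.91), and the 5 diamonds lie between 11.73 and 11.87 for Wnk1.

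Over all 15 kidneys, the genes whose values were most like those of Slc12a3 were Atp6v1b1, a proton pump subunit gene (Pearson's r = 0.98), Efhd1 (0.98), Rras (0.97), Gca (0.97) and Il17re (0.97), ranked among 22179 genes as a description. This likeness includes the shared division by Y-linked transcripts, in which all 5 were higher without these transcripts by 0.35 to 0.94. Within the 10 kidneys with Y-linked transcripts their r with Slc12a3 lay between 0.76 and 0.86. Among the members the closest was Klhl3, at rank 396, and its r within those 10 kidneys was -0.036.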

How the data were processed

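Kidney RNA of 15 mice was measured on a 1-colour array. The deposited data are RMA summaries on the log2 scale, 1 per probe set, per the submitters' processing notes. RMA subtracts background, brings arrays to 1 distribution and compresses dim probe sets. No source used here gave the software version or the array's genome build. Precision is limited by the number of arrays, and the p-values of differences rest on the spread between these samples.

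Of 41345 probe sets, the 23521 with exactly 1 gene symbol were tested, dim ones included. Symbols were updated by Entrez ID for 23328. Groups came from the titles. Differences were fitted with limma 3.58.1 (lmFit, eBayes) in R 4.3.3, two-sided, with a threshold of 0.05 on the Benjamini-Hochberg adjusted p; 95% intervals are unadjusted. Exact permutation tests used all 6435 label assignments (smallest possible p 0.000155), and correlations 100000 resamples. The fits were tested on simulated data with the spread left after genotype and Y-linked transcripts. That run did not carry the wider spread of the members in the fit without a covariate, and its outcome is not given here.

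A kidney held Y-linked transcripts where Eif2s3y, Kdm5d and Uty averaged above 6.32, the midpoint of the lowest and highest mean, and liver or adrenal cortex transcripts where that list's mean exceeded the median of all kidneys by over 1 log2 unit. Members and lists were chosen with earlier results of these data known. Named were all members, Grhl1, the 5 genes most like Slc12a3 and, per pathway list, up to 4 genes past the threshold or, with none, the 2 smallest p; other genes are marked as named after their values were seen, or stand in marker lists. Correlations between members pooled over all 15 kidneys are not given, since the kidneys fall into clusters; likeness to Slc12a3 was ranked over all 15. Alternatives changed the variance model, filter, scaling, probe set rule, array weights or kidneys.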

Additional observations from a re-analysis of the deposited data

Results flagged for a closer look

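Of 20 groups checked, 10 genes in each genotype, 1 held a value far from the others, where chance alone flags about 1 in 20. Trpm7 read 10.2 in knockout replicate 10, while the other 7 knockout kidneys lay between 10.02 and 10.09. That kidney is among those with liver and adrenal cortex transcripts, and whether these bear on the value was not tested. Without it the difference between the genotypes was 0.059.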

How the results depend on the processing

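No member passed for genotype under any of the 13 alternative settings or in the fits that left out 1 kidney, with or without Y-linked transcripts as a covariate, and apart from Slc12a3 each member kept its sign. Slc12a3 turned to 0.083 without the kidneys with liver or adrenal transcripts and to 0.011 among the kidneys without Y-linked transcripts; leaving out 1 kidney it ranged from -0.075 to 0.023. With Y-linked transcripts as a covariate it was -0.031 without the kidneys with liver or adrenal transcripts, and -0.075 to -0.046 leaving out 1 kidney. The number of members past the threshold by Y-linked transcripts was 7. Fits with fewer kidneys gave 3 without the kidneys with liver or adrenal transcripts, where 7.86% of all probe sets were called higher. They gave 2 in wild-type and 5 in knockout kidneys alone, where 8.32% and 13.9% of all probe sets passed. With arrays centred on their median the count was 5, and with arrays quantile normalized again it was 8. It was 7 under the other settings and whichever kidney was left out. The shares of all probe sets under these changed settings are not given here, so those counts cannot be read against a background. Slc8a1 was at -0.034 in wild-type kidneys alone. These alternatives for Y-linked transcripts were chosen after seeing the data. No paired analysis was possible because the genotypes share no replicate numbers. Averaging a gene's probe sets changes no member, as each has 1.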
